A study of Homo sapiens with 12 samples.

Results

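The cells described here are A549 cells, an established human lung adenocarcinoma line, after 12 h and 24 h with TGFβ, taken as single cells and compared with one another within each library. They were chosen by time point and by limits on the well, namely 100 to 40000 UMIs (unique molecular identifiers, each a counted mRNA molecule), 2000 to 7000 detected genes and at most 35% of counts on mitochondrial genes. These limits left 795 of the 1536 wells at 12 h and 24 h, out of 1871 cells kept from 4608 wells over the whole time course. Cells were sorted 1 per well and read by CEL-Seq2, which primes at the poly(A) tail, in 2 libraries of 384 wells for each of 6 time points. The groups used here are untreated cells (0 h) and cells given TGFβ at 4 ng/mL for 0.5 h, 12 h, 24 h, 48 h or 96 h. Untreated cells were taken at 0 h only, so TGFβ and time in culture cannot be told apart in comparisons between time points. All came from 1 cell line in serum-containing medium, the medium with TGFβ being replaced every other day. The labels do not say whether replicates were separate cultures, so every p-value refers to the spread among libraries, and that spread may be technical.

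TGFβ drives epithelial cells toward epithelial-to-mesenchymal transition (EMT), in which junction proteins such as E-cadherin give way to N-cadherin, fibronectin and collagens. Receptor-activated SMAD proteins carry the signal to the nucleus and switch on matrix genes, protease inhibitors and feedback inhibitors. Cells in a culture are not at the same stage of the cell cycle, and passage through intermediate states that hold epithelial and mesenchymal products together is a known feature of EMT. The questions were therefore which genes differ between cells of 1 library, which of them move together, and whether epithelial and mesenchymal transcripts occur in the same cell.

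Cells kept numbered 188 and 217 in the 12 h libraries (replicates 1 and 2) and 201 and 189 in the 24 h libraries, and values below follow this order of libraries. The median cell held 23086, 17850, 24805 and 15789 UMIs and 4632, 4172, 4756 and 3814 detected genes. Mitochondrial genes took a median of 24.3%, 23.1%, 23.8% and 23.5% of counts. The 2 replicate 1 libraries carried 1 set of well barcodes and the 2 replicate 2 libraries another, so replicate number and barcode set cannot be told apart. Kept cells of the replicate 1 libraries shared 107 barcodes, where independent use of the wells gives 98.4, and those of the replicate 2 libraries shared 106, where it gives 107. Libraries of different number shared 0. Only 8, 20, 9 and 8 cells met stricter limits (3000 genes or more and no more than 20% mitochondrial counts).

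The label was checked with COL1A1, a chain of type I collagen, with N-cadherin (CDH2) and with the adhesion molecule ESAM. These genes lie at chr17:50184101-50201632, chr18:27932879-28177946 and chr11:124752583-124762290 (GRCh38, GENCODE 44), all on the minus strand. Summed over cells, COL1A1 stood at 101, 93.8, 132 and 83.7 CPM (a library's protein-coding UMIs scaled to a common total) and at 0.3 to 2.29 CPM in the 4 libraries of 0 h and 0.5 h. CDH2 stood at 30.6, 34.2, 31.9 and 28.9 CPM against 6.57 to 13.7, and ESAM at 49.9, 45.7, 55.3 and 41.1 CPM against 3.47 to 5.75. None of the 3 genes overlapped between these groups, and the log2 changes were 6.32 ± 0.37 (SE), 1.71 ± 0.18 and 3.38 ± 0.20 (edgeR quasi-likelihood test, Benjamini-Hochberg adjusted p = 7.06e-08, 8.56e-08 and 5.02e-12, 4 libraries against 4). E-cadherin (CDH1) fell by 2.57 on the log2 scale, from 27.6 to 39.2 CPM to 8.66, 7.36, 5.96 and 1.48 CPM (edgeR adjusted p = 1.39e-07). By the same test 23.2% of all genes changed. At 48 h and 96 h COL1A1 and CDH2 stood higher still, with means of 265 and 94.2 CPM against 103 and 31.4 at 12 h and 24 h. ESAM was lower there (15.1 against 48.0 CPM), so of the 3 genes only ESAM was highest at 12 h and 24 h. Markers of other cells were sparse. The endothelial genes CDH5 and TEK, the leukocyte gene PTPRC and the fibroblast genes DCN and PDGFRB were at 0 UMIs in all 795 cells. The summed endothelial list was 6.04 to 11.0 CPM against 3.76 to 9.61 at 0 h and 0.5 h, the fibroblast list 19.6 to 36.5 against 19.0 to 36.3, and the immune list 0.229 to 1.58 against 6.01 to 9.27. Of these sums, 114 of 115 endothelial UMIs were EGFL7, 444 of 468 fibroblast UMIs COL6A3, and all 13 immune UMIs CD14.

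Between 24 h and 12 h, no gene passed the test of summed levels (0% of 10465 genes by edgeR at an adjusted p under 0.05, 572 at an unadjusted p under 0.05, and 2 by DESeq2, though 31 by edgeR with no filter on low counts). No gene passed the test of variation between cells either (0% of 7292 genes by limma, 144 at an unadjusted p under 0.05). A gene that misses these tests is not thereby shown to be equal at both times. The 4 libraries are described side by side.

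Variation was measured for each gene in each library as the variance of its counts over cells after scaling for depth. That variance was divided by the variance expected from counting plus the typical variation of genes of like level, and the log2 of this ratio is called the variance ratio below. A ratio of 0 marks a gene as variable as its neighbors in level, and 1 marks a variance 2 times that expected. A gene was called variable where its mean was at least 0.1 UMI per cell, its variation exceeded counting by at least 3 counting standard errors and its variance was at least 1.5 times expected, in all 4 libraries. Cells are not replicates, so a call is a description with no p-value.

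Of 7874 genes with enough UMIs, 539 varied beyond counting in all 4 libraries (6.85%) and 190 were called variable (2.41%). With each cell thinned to 12500 UMIs, 113 of 6814 genes were called, all of them among the 190. Single libraries gave 428, 371, 391 and 270 variable genes. Of the 304 genes variable in both replicate 1 libraries, 190 were also variable in both replicate 2 libraries (62.5%, where 2.72% of all genes tested were). In the other direction it was 190 of 214 (88.8%, where 3.86% were). All 304 and all 214 had a ratio above 0 on average in the libraries not used to pick them. The 12 h libraries picked 293 genes, of which both 24 h libraries kept 64.8%, where 2.69% of all genes tested were variable. The 24 h libraries picked 212, of which both 12 h libraries kept 89.6%, where 3.72% were. Calls depended on level, with 0.165% of genes called at 0.1 to 0.3 UMI per cell and 14.0% at 10 UMIs or more, so weakly expressed genes could rarely be called at this depth. The genes nearest the limit were OAS1, H2AZ1 and MTHFD2 inside (lowest ratio of the 4 libraries 0.59, 0.59 and 0.6) and TM4SF20, PGM2L1 and BUB1 outside (0.58 each).

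**Figure D1:**
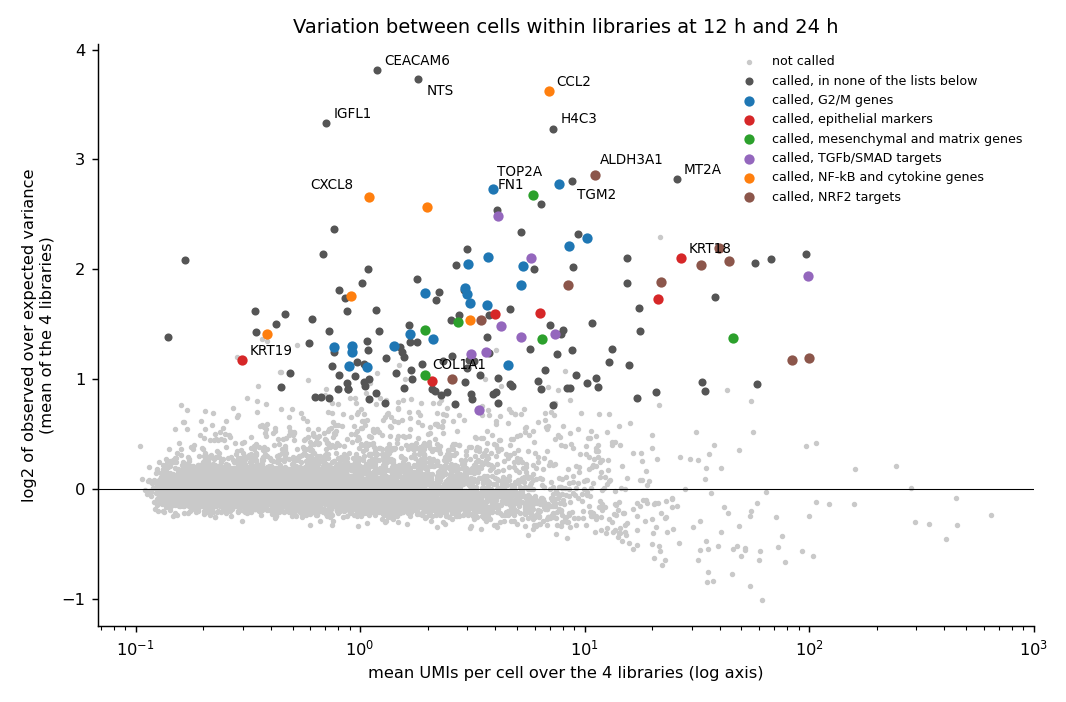
Variance ratio (log2 of observed over expected variance, mean of the 4 libraries) against mean UMIs per cell (log axis), one point per gene, for the 7874 genes tested except those on the Y chromosome. Gray points are genes not called and dark or colored points 189 of the 190 called, colored by gene list. Most genes lie around 0, and CEACAM6, NTS and CCL2 stand highest at 3.81, 3.73 and 3.62.

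Of the 5 highest mean ratios, those of CEACAM6, NTS and IGFL1 belonged to genes detected in a minority of cells. CEACAM6, a surface glycoprotein of the carcinoembryonic antigen family, had ratios of 3.51, 4.28, 4.47 and 2.96. It had a UMI in 27.7%, 24.4%, 27.4% and 20.6% of cells, and the 10% of cells with most of it held 83.3% to 87.6% of its UMIs. Most cells of each library thus had none. NTS, the precursor of neurotensin, had ratios of 4.31, 3.73, 4.33 and 2.57 and was detected in 31.9%, 37.3%, 31.3% and 36.0% of cells, with 68.3% to 82.6% of its UMIs in the top 10% of cells. IGFL1, an insulin growth factor-like ligand, was similar at 3.6, 3.52, 4.12 and 2.09, in 16.5% to 32.3% of cells. CEACAM6 and NTS were only weakly related over cells (Spearman's rho over cells 0.18, 0.14, 0.19 and 0.05).

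Chemokines were present at very unequal levels. CCL2, which attracts monocytes, had ratios of 3.9, 3.42, 3.85 and 3.3 and was detected in 80.9%, 75.6%, 72.6% and 64.6% of cells. Its median was 2.93, 1.7, 1.13 and 1.07 UMIs per 10000 protein-coding UMIs of a cell, while the 90th percentile was 13.2, 12.6, 13.9 and 10.9. The upper tail was thus alike in the 4 libraries and lay well above the middle of the distribution in each. CXCL8, a neutrophil chemokine, was detected in 38.3%, 24.4%, 35.8% and 30.2% of cells and had 3.61, 1.8, 3.42 and 1.81, with both replicate 1 libraries above both replicate 2 libraries. CXCL5, of the same family, had 2.91, 2.14, 3.19 and 2.05 and showed the same order.

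Genes whose summed level had risen since 0 h and 0.5 h were among the most variable as well. TGM2, the tissue transglutaminase that cross-links matrix proteins, had ratios of 2.71, 2.91, 3.14 and 2.44, with a 10th percentile of 0.725, 0.493, 0 and 0 and a 90th percentile of 13.8, 18.5, 12.6 and 14.4 UMIs per 10000. Fibronectin (FN1) had 2.96, 2.5, 3.78 and 1.49, the lowest in the shallow 24 h replicate 2 library and the highest in 24 h replicate 1, where 1 cell held 132 UMIs. FN1 already stood at 122 to 206 CPM at 0 h and 0.5 h and rose by 0.78 ± 0.13 log2 units. The interleukin IL11 had 2.26, 2.59, 2.77 and 2.29 and was detected in 69.1%, 66.8%, 77.6% and 77.8% of cells, although its summed level was 5.20 ± 0.20 log2 units above 0 h and 0.5 h. No molecule of IL11 was thus counted in 22.2% to 33.2% of cells, and the part of missed molecules in this was not tested. The whole libraries of 0 h and 0.5 h held 8, 13, 26 and 64 IL11 UMIs, so most cells had none there.

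Others of the 25 highest ratios were the matrix protein CCDC80 (mean 2.34), the protease inhibitor TFPI2 (2.32), the uroplakin UPK1B (2.37), C15orf48 (2.54), the Wnt antagonist DKK1 (2.18), the metal-binding protein MT2A (2.82), the histone H4 gene H4C3 (3.28) and the mitochondrially encoded complex I subunit MT-ND4L (2.14). MT-ND4L was called alone among 13 mitochondrially encoded genes, whose median ratio was -0.14. ALDH3A1, an aldehyde dehydrogenase, had 4.01, 2.72, 2.56 and 2.13. In 12 h replicate 1 its highest cell reached 242 UMIs per 10000, against 42.6, 36.5 and 31.1 in the other libraries. ANKRD1, a muscle-type ankyrin protein, had 4.68, 1.44, 1.51 and 0.92, and its call was lost when the highest cell of each library was left out. That call rested on single cells, whereas 174 of the 190 calls held without the highest cell.

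**Figure D2:**
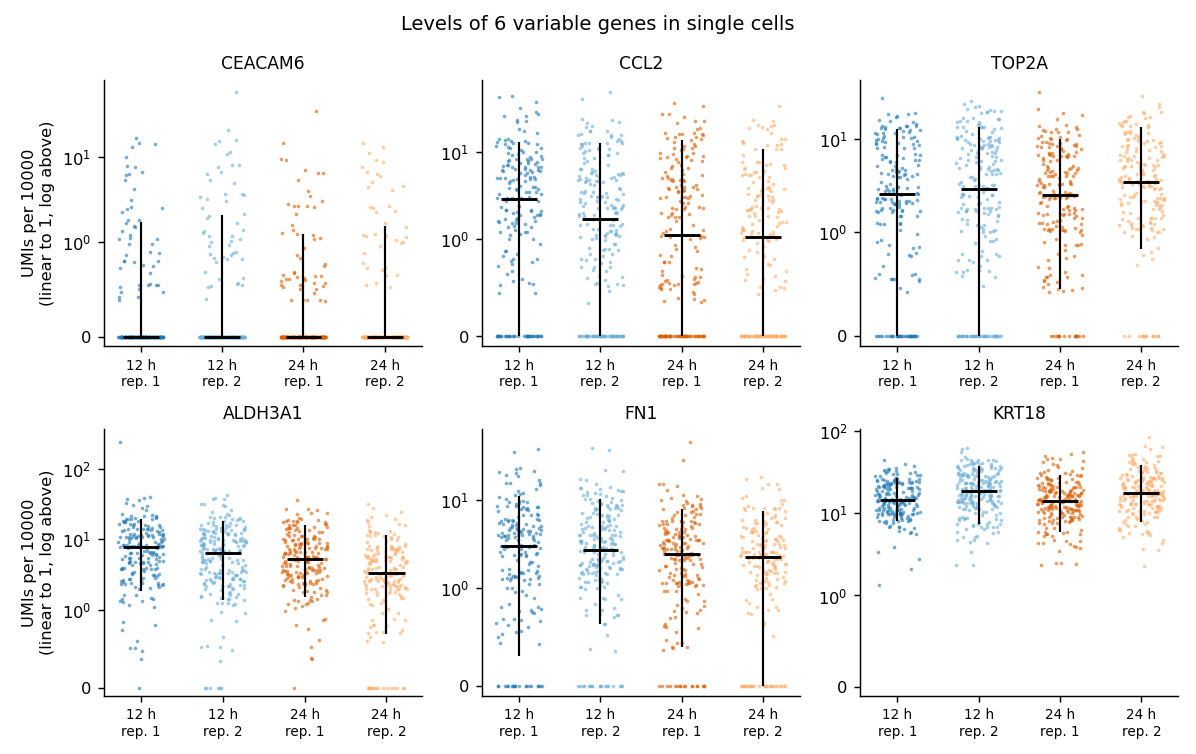
Levels of CEACAM6, CCL2, TOP2A, ALDH3A1, FN1 and KRT18 in single cells of the 4 libraries (UMIs per 10000 protein-coding UMIs, linear to 1 and log above), one point per cell, with black lines for the median and the 10th to 90th percentile. CEACAM6 sits at 0 in most cells with a long upper tail (maximum 58.7 in 12 h replicate 2), while ALDH3A1 is detected in 91.5% to 99.5% of cells.

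Genes of mitosis varied widely between cells. Of 30 tested genes of the G2 and M phases, 22 were called (73.3%, against 2.41% of all genes), and the list's median ratio was 1.33 where that of all genes was -0.01. TOP2A, the topoisomerase that untangles DNA before division, had ratios of 2.89, 2.94, 2.86 and 2.42, with a median of 2.54, 2.87, 2.47 and 3.47 and a 90th percentile of 12.6, 13.5, 10.1 and 13.3 UMIs per 10000. UBE2C, a ubiquitin-conjugating enzyme of the anaphase-promoting complex, had 3.03, 2.62, 3.12 and 2.14, and KPNA2, a nuclear import receptor, 2.25, 2.58, 2.36 and 1.93. ARL6IP1, a membrane protein of the endoplasmic reticulum, had 2.35, 2.35, 2.43 and 1.69. MKI67, the Ki-67 proliferation antigen, had 1.8, 1.89, 1.94 and 1.12. For each of these except KPNA2 and UBE2C the value of 24 h replicate 2 was set apart below the other libraries, and for those 2 it was the lowest too. Only 2 of 25 genes of the G1 and S phases were called (8%, median 0.40), the sliding clamp PCNA and the ribonucleotide reductase subunit RRM2. The summed level of the G2/M list at the 90th percentile of cells was 11.7, 12.5, 8.24 and 6.80 times that at the 10th. Summed over cells, 0 of 30 G2/M genes changed from 0 h and 0.5 h to 12 h and 24 h, where 23.2% of all genes did (edgeR, adjusted p under 0.05).

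Promoters of these genes were searched because the members moved together in single cells. RefSeq promoters (GRCh38.p14, 300 bases spanning each start site) were matched to 18 of the 22 called G2/M genes. The letters CCAAT, bound by the factor NF-Y, stood on either strand in 17 of 18 (94.4%), against 39.7% of 27305 genes. TTTGAA, one form of the cell cycle homology region, stood in 13 (72.2%) against 18.2%, and its other form TTCGAA in 0 against 1.82%. The following promoters are those of the most variable G2/M genes that held a match, with CCAAT and TTTGAA (or their reverse complements ATTGG and TTCAAA) in capitals. TOP2A lies at chr17:40417847-40418146 (minus strand), KPNA2 at chr17:68035485-68035784 (plus strand) and CENPF, a kinetochore protein, at chr1:214602945-214603244 (plus strand).
TOP2A: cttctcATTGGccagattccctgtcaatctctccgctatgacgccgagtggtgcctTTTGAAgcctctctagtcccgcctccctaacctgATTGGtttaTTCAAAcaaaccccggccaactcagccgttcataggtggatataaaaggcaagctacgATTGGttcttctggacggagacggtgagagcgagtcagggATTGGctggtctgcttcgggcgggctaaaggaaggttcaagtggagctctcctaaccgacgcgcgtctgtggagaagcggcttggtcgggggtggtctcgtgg
KPNA2: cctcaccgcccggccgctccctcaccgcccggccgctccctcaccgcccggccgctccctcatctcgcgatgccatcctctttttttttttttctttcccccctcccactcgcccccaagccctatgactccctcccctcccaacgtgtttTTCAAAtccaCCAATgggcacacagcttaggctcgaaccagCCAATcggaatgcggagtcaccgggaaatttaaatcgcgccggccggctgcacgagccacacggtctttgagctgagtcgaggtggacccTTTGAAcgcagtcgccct
CENPF: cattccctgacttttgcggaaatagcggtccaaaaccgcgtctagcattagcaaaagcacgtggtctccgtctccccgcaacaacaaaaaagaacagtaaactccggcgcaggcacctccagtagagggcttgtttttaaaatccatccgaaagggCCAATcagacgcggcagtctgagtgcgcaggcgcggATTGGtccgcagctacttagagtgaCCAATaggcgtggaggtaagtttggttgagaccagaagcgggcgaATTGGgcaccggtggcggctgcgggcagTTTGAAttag
ARL6IP1 held none of these motifs in its window, and a match describes letters only, not a bound site. The list of G2/M genes as a whole gave 23 of 26 genes with CCAAT (88.5%) and 17 with TTTGAA (65.4%).

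Epithelial and mesenchymal genes were called more often than the background, but by no means throughout. Of 13 tested epithelial markers, 6 were called (46.2% against 2.41%, median ratio 0.88), namely the keratins KRT8, KRT18 and KRT19, the surface protein CD24, the tight junction protein CLDN1 and the junction protein plakoglobin (JUP). KRT18 had ratios of 1.5, 2.07, 2.36 and 2.48 and its partner KRT8 1.46, 1.67, 1.84 and 1.95, with KRT18 detected in every cell and KRT8 in all but 1 cell. KRT18 ran from 8.09, 7.38, 5.88 and 7.76 at the 10th percentile to 27.2, 38.0, 29.2 and 39.0 UMIs per 10000 at the 90th. The summed levels of both keratins did not pass the test against 0 h and 0.5 h (-0.11 ± 0.11, adjusted p = 0.514 for KRT8 and -0.04 ± 0.22, adjusted p = 0.935 for KRT18, edgeR). KRT19 had 1.11, 1.79, 1.0 and 0.77, and its call was lost without the highest cell. CLDN4 had 0.9, 0.33, 0.87 and 0.13 and was not called. CDH1 had 0.16, 0.44 and 0.03 in the libraries that could be measured, and EPCAM a mean of 1.56. Neither of these reached 0.1 UMI per cell in every library, so they were too sparse to be called.

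Among 21 tested mesenchymal and matrix genes, 6 were called (28.6% against 2.41%, median 0.50). These were FN1, the TGFβ-induced matrix protein TGFBI (1.28, 1.64, 1.38 and 1.19), the proteoglycan VCAN (1.35, 1.48, 1.65 and 1.33), the collagen chains COL5A2 (1.98, 1.26, 1.69 and 1.15) and COL1A1 (1.34, 1.07, 1.07 and 0.69), and S100A4. COL1A1 was detected in 70.2%, 64.5%, 80.1% and 57.1% of cells, with at most 18 UMIs in a cell, and it was not called once each cell was thinned to 12500 UMIs. Vimentin (VIM), the mesenchymal intermediate filament, was detected in every cell and was not called, at 0.53, 0.17, -0.07 and 0.14. CDH2 (0.53, 0.43, 0.4 and 0.51) and ESAM (0.58, 0.48, 0.59 and 0.36) lay above 0 in each library and were not called. The EMT regulators SNAI1 (0.08, 0.17, 0.51 and -0.07) and ZEB1 (-0.22, 0.04, -0.13 and 0) were not called, and SNAI2, with 9 to 13 UMIs per library, was too sparse.

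Direct targets of the pathway were called in 9 of 23 cases (39.1% against 2.41%, median 0.40). They included IL11, the matricellular proteins CCN1, CCN2 (mean 2.10) and THBS1, the lipase inhibitor ANGPTL4, the inhibitor of differentiation ID1, the LIM protein LMCD1 and the receptor TGFBR1. The letters TGANTCA, an AP-1 motif, stood on either strand in the promoter of 1 of 11 called genes of the TGFβ and mesenchymal lists (9.09% against 9.37% of all genes), and GTCTAGAC, a palindrome bound by SMAD proteins, in 0 (against 0.256%). That 1 promoter is IL11 at chr19:55370414-55370713 (minus strand, TGANTCA in capitals), and FN1 held neither motif.
IL11: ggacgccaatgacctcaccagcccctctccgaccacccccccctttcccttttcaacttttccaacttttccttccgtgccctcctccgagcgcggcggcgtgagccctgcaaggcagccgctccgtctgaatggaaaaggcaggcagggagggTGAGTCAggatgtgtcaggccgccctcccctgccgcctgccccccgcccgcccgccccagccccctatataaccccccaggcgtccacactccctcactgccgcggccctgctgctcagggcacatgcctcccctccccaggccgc

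Other lists were called as follows, each against 2.41% of all genes. Of 11 NF-κB and cytokine genes 6 were called (54.5%, median 1.41), including CCL2 and the inhibitor NFKBIA, and of 26 NRF2 targets 10 (38.5%, median 0.59), mainly aldo-keto reductases. The list of secreted epithelial products gave 5 of 9 (55.6%, median 1.0), with the disulfide isomerase AGR2 at 1.53, 1.83, 2.27 and 1.24. That list is not strictly one of secreted proteins, as it also holds the mitochondrial urea cycle enzyme CPS1 (2.89, 1.36, 1.56 and 1.43). At the other end were 80 cytosolic ribosomal proteins (1 called, RPS27L, median -0.28). Actin and focal adhesion genes also had 1 of 18 called (5.56%, median 0.19), although 15 of 19 such genes rose in summed level and 1 fell (edgeR, adjusted p under 0.05, against 23.2% of all genes changed).

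Genes whose levels had moved since 0 h and 0.5 h were common among the variable genes. Of the 190, 115 (60.5%) had changed against 0 h and 0.5 h, 70 higher and 45 lower, while 24.1% of the 7684 genes not called had. Both calls moved with level, so the shares were also taken within classes of level. At 10 UMIs per cell or more, 22 of 33 called genes had changed (66.7%) against 17.2% of the 203 not called, and below 1 UMI 55.6% against 22.5%. The other 75 variable genes, the 22 called G2/M genes and the keratins KRT8 and KRT18 among them, did not pass the test of levels.

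Variable genes were next set against one another over cells, to see which rise and fall together. Spearman's rho was taken between 189 of them within each library, a gene on the Y chromosome being left out. Over 17766 pairs the values of the replicate 1 libraries correlated with those of the replicate 2 libraries at r = 0.878 across pairs. Groups were drawn from the replicate 1 libraries at a mean rho of 0.25, a limit chosen after the data had been seen, and then read in the replicate 2 libraries. This gave 9 groups with 99 genes. All cells of a library share its chemistry and its range of depth, so the rho values are descriptions and carry no p-value.

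**Figure D3:**
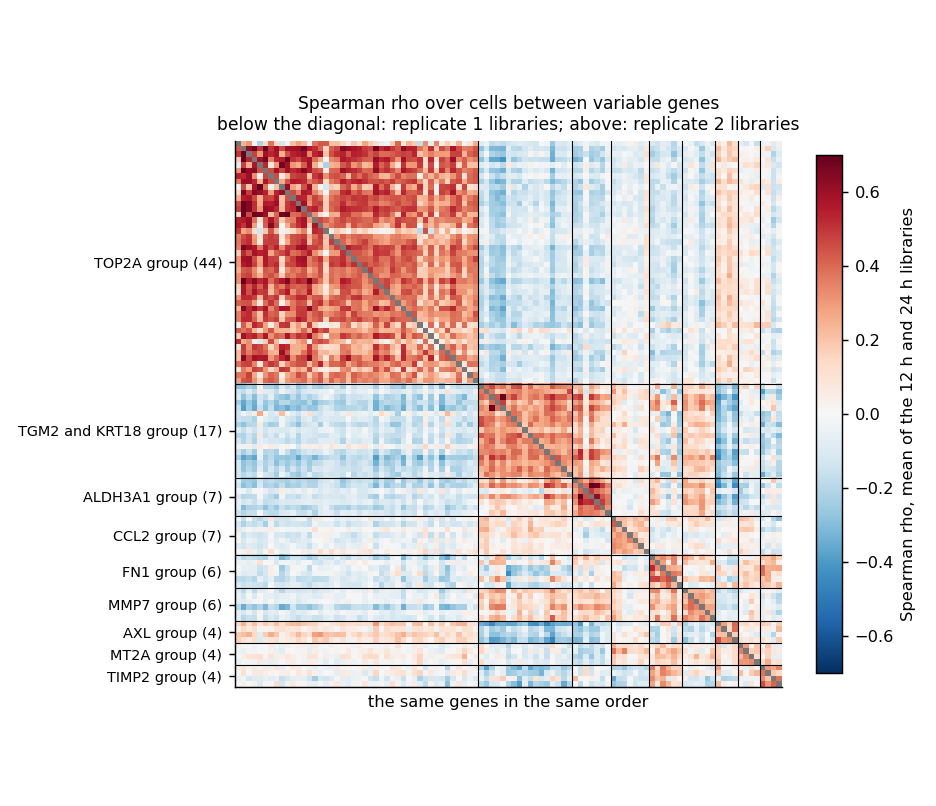
Spearman's rho over cells between the genes of the 9 groups (color scale, mean of the 12 h and 24 h libraries), below the diagonal in the replicate 1 libraries that defined the groups and above it in the replicate 2 libraries. Blocks on the diagonal appear on both sides, from a mean of 0.37 and 0.35 in the cell cycle group to 0.31 and 0.17 in the group led by MT2A.

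The largest group held 44 genes led by H4C3, TOP2A and UBE2C, with a mean rho of 0.37 in the replicate 1 libraries that defined it and 0.35 in the replicate 2 libraries, where 925 of 946 pairs were above 0. Of these, 22 came from the G2/M list and 22 did not, among them the cytokinesis regulator RACGAP1 and the mitotic kinase NEK2. TOP2A and MKI67 correlated at 0.73, 0.77, 0.66 and 0.58. The 5 genes closest to MKI67 among 3775 with at least 0.5 UMI per cell were TOP2A (mean 0.68), the kinase AURKB (0.63), CENPF (0.63), UBE2C (0.62) and the spindle protein TPX2 (0.58). With cells thinned to 12500 UMIs, the group's mean rho was 0.32, 0.33, 0.26 and 0.25 against 0.41, 0.4, 0.32 and 0.3 before. Both 24 h libraries lay below both 12 h libraries either way.

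The second group joined KRT8 and KRT18 with 15 genes of mixed character. They included TGM2, TFPI2, the small heat shock protein HSPB1, the annexin ANXA1, CD24, the antiprotease SLPI, the glucose transporter SLC2A3, the integrin subunit ITGB4 and the mesenchymal proteoglycan VCAN. Mean rho was 0.31, 0.29, 0.34 and 0.34, and all 136 pairs were above 0 in the replicate 2 libraries, which the grouping did not use. In the other 8 libraries the same genes gave 0.19 to 0.21 at 0 h and 0.5 h and 0.09 to 0.16 at 48 h and 96 h. Members of every group were called variable at 12 h and 24 h and grouped by rho there, so values at other times are given as a description only. KRT8 with KRT18 gave 0.73, 0.71, 0.7 and 0.72, inside the range of the other times (0.35 to 0.85). The 2 genes lie side by side on chromosome 12, and their annotated spans share 1084 bases (chr12:52948871-52949954, GENCODE 44), at the 5′ end of KRT18. Counting with poly(A) priming reads mainly the 3′ end, but the strand setting of the counts is not given, so shared reads cannot be told apart there. KRT18 with HSPB1 gave 0.38, 0.38, 0.39 and 0.5 (-0.11 to 0.25 at other times), and with TGM2 0.44, 0.51, 0.38 and 0.42 (0.01 to 0.29). These pairs were chosen after seeing the groups, and the same limit applies to them. KRT18 with VCAN gave 0.27, 0.31, 0.49 and 0.38 (0.11 to 0.37).

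A separate group held matrix and other genes with higher summed levels than at 0 h and 0.5 h, among them FN1, CCDC80, TGFBI, LMCD1 and the protease inhibitor SERPINE2. Its mean rho was 0.36, 0.24, 0.33 and 0.24. The replicate 2 values, 0.24 in both, lay inside the range of 48 h and 96 h (0.08 to 0.26). FN1 with TGFBI gave 0.47, 0.32, 0.47 and 0.38 (-0.03 to 0.29 at other times). The summed level of this group was unrelated to that of the keratin group (rho -0.01, 0.02, 0.02 and 0.01), and KRT18 with FN1 gave 0.07, 0.07, 0.1 and 0.19. Cells high in fibronectin were thus neither the cells low in keratin nor those high in it. COL1A1, which entered no group, was closest to TGFBI (0.39, 0.16, 0.1 and 0.33), HSPB1 (mean 0.23) and FN1 (mean 0.21), and CDH2 to the basement membrane collagen COL4A2 (mean 0.20). For ESAM the closest gene was CDCA7 at a mean of 0.15, a weak value in such sparse counts.

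**Figure D4:**
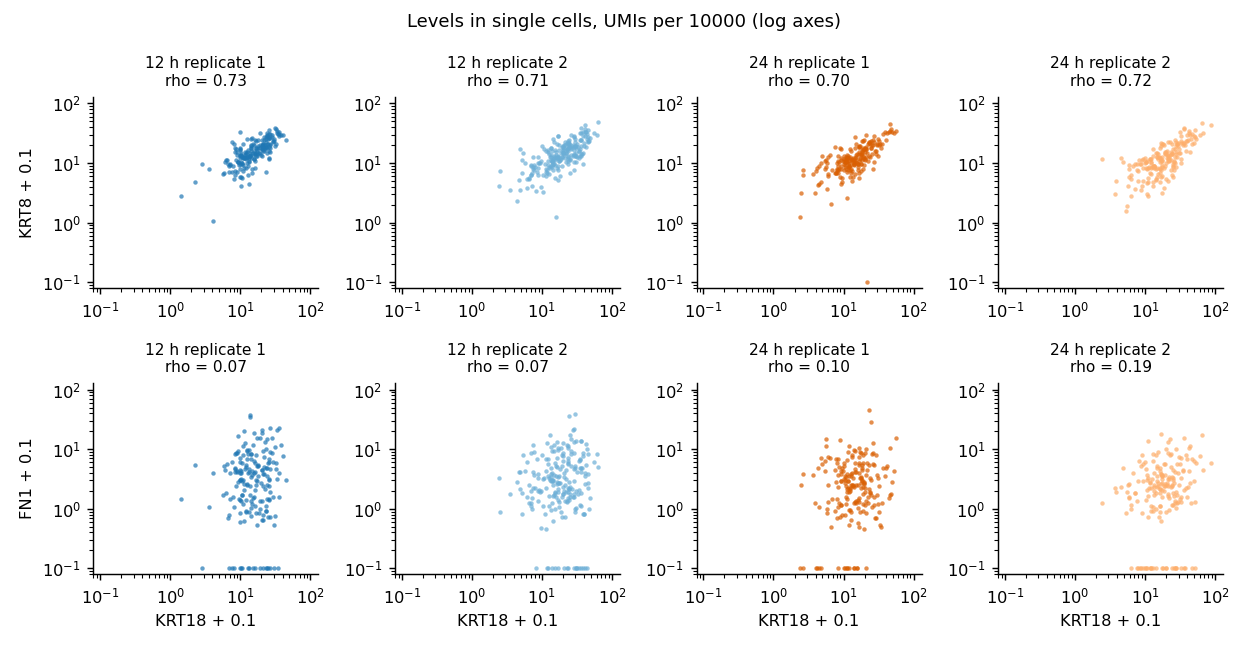
KRT8 (top row) and FN1 (bottom row) against KRT18 in single cells of the 4 libraries, in UMIs per 10000 plus 0.1 on log axes, one point per cell. KRT8 rises with KRT18 in each library (rho 0.7 to 0.73), while FN1 does not follow it (0.07 to 0.19).

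The third held ALDH3A1, the aldo-keto reductases AKR1B10, AKR1C1, AKR1C2 and AKR1C3, the ferritin light chain FTL and the glutathione peroxidase GPX2 (mean rho 0.43, 0.4, 0.36 and 0.41, and 0.23 to 0.47 at other times). AKR1C1, AKR1C2 and AKR1C3 are related genes of similar sequence whose reads may be split between them, so their mutual values are uncertain. AKR1B10 with FTL gave 0.41, 0.33, 0.28 and 0.37. The fourth held CCL2, CXCL8, CXCL5, CXCL1, NFKBIA, the ephrin EFNA1 and CLDN1. Its mean rho was 0.29, 0.19, 0.27 and 0.15, and the last, from a library the grouping did not use, lay inside the range of 48 h and 96 h (0.09 to 0.16). Smaller groups joined the metalloproteinase MMP7 with the tight junction gene CLDN2, the receptor kinase AXL with caveolin CAV1, MT2A with the galectin LGALS1, and TIMP2 with IGFBP4, JUP and COL5A2. In the last group an epithelial junction gene and a mesenchymal collagen rose together, JUP with COL5A2 at 0.47, 0.39, 0.35 and 0.37 (0.03 to 0.46 at other times).

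Between groups, the keratin group ran against the cell cycle group (-0.46, -0.46, -0.47 and -0.47) and against the AXL and CAV1 group (-0.61, -0.59, -0.68 and -0.67). It ran with the NRF2-type group (0.39, 0.4, 0.34 and 0.6) and with the MMP7 group (0.44, 0.57, 0.51 and 0.5). Levels are shares of a cell's UMIs, and groups moved with depth as well. The keratin group correlated with UMIs per cell at -0.26, -0.41, -0.12 and -0.33 and with mitochondrial share at 0.24, 0.14, 0.19 and 0.22, the cell cycle group with UMIs at 0.19, 0.27, 0.1 and 0.21, and the AXL group at 0.28, 0.41, 0.08 and 0.36. The part of depth in these relations was not tested beyond thinning, under which the keratin group kept a mean rho of 0.27 to 0.32 in the 4 libraries.

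Whether epithelial and mesenchymal programs exclude each other was asked first with summed levels. The summed level of the epithelial list (27 genes in the table) correlated with that of 36 mesenchymal genes at 0.33, 0.31, 0.31 and 0.20 over cells. It was positive in each library. The sum of the list of secreted epithelial products, CPS1 included, gave -0.13, -0.11, 0.08 and -0.09 with the same mesenchymal genes. With a core set of 10 mesenchymal genes it gave -0.23, -0.24, -0.08 and -0.19, where the epithelial list gave 0.29, 0.19, 0.17 and 0.1. KRT8 with VIM gave -0.11, -0.15, -0.1 and -0.16. Splitting a list in 2 by alternate members gave 0.39, 0.45, 0.47 and 0.53 for the epithelial and 0.53, 0.47, 0.29 and 0.29 for the mesenchymal list. These values come from sums of fewer genes and are no upper limit for the full sums. The mesenchymal sum gave 0.64, 0.54, 0.5 and 0.52 with the sum of direct TGFβ targets. The sums of the epithelial and the mesenchymal list both ran against the G2/M list (-0.35, -0.32, -0.4 and -0.33, then -0.18, -0.17, -0.29 and -0.24). For 10 less abundant epithelial genes (CDH1, EPCAM, CLDN4, KRT19 and others) the same split gave -0.02, 0.12, 0.14 and 0, so this sum did not rank cells.

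Detection of single transcripts was then compared after each cell had been thinned to 12500 UMIs, which kept 701 of the 795 cells. Of 10 such epithelial genes the median cell had 1 in each of the 4 libraries, as at all other times. Of 10 mesenchymal genes it had 5, 5, 6 and 5, against 2 in each library of 0 h and 0.5 h, and no cell had 0. Cells with at least 1 gene of each kind made up 78.7%, 68.2%, 69.8% and 70.4%. The share at 0 h and 0.5 h, 76.4% to 82.0%, was no lower. Cells with 3 or more of each kind were 2.81%, 5.73%, 2.65% and 1.41%.

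Transcripts of the E- and N-cadherin genes were found together in 14 of 701 cells, which is 2% (exact 95% binomial interval 1.1 to 3.33). If the genes were detected independently within each library, 12.4 cells would be expected, a ratio of 1.13. CDH1 with COL1A1 gave 27 cells (3.85%) where 27.3 are expected, and CDH1 with FN1 39 cells (5.56%) where 37.7 are expected. By library, CDH1 and COL1A1 were seen together in 8 of 178, 6 of 192, 10 of 189 and 3 of 142 cells, with 8.43, 6.62, 10.2 and 2.03 expected. Of the 46 cells with CDH1, 58.7% also had COL1A1. KRT19 with COL1A1 gave 50 cells (7.13%, 50.2 expected), CLDN4 with COL1A1 73 (10.4%, 76.5 expected) and EPCAM, an epithelial surface protein, with COL1A1 14 (2%, 13.5 expected). KRT18 and VIM were found together in 700 of 701 cells. No pair was thus seen clearly less often than independent detection gives, with ratios of 0.954 to 1.13. At these low counts, a moderate tendency to exclude or attract would not have been detectable. Free RNA was gauged in wells with under 1000 genes, where COL1A1 had a UMI in 3.87% to 8.60% and CDH1 in 0% to 1.29%, against 50.7% to 68.3% and 2.82% to 8.43% of the thinned cells. CDH2 had a UMI in 3.38% to 14.3% of such wells against 25.4% to 27.5% of cells. The abundant genes were frequent in such wells, FN1 in 18.1% to 30.6%, KRT18 in 59.2% to 87.8% and VIM in 51.0% to 87.2%, and the part of free RNA in pairs that hold them was not tested. The interval covers counting error only.

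**Figure D5:**
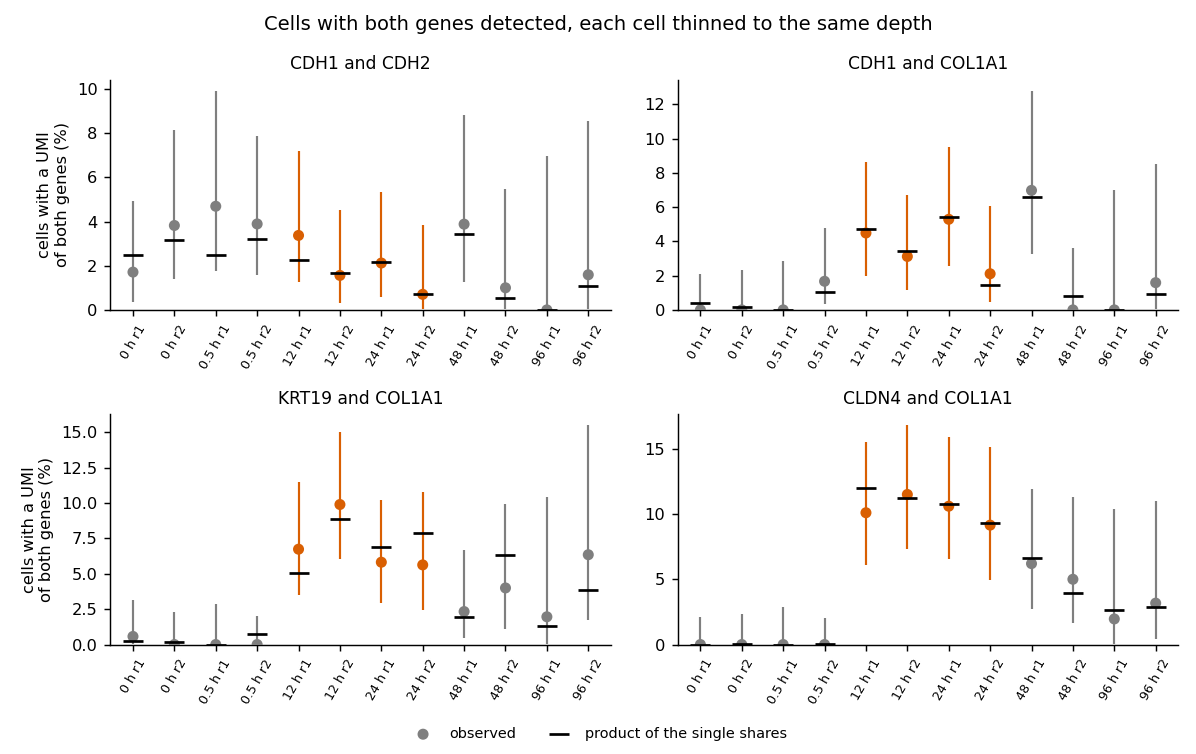
Percentage of thinned cells with a UMI of both genes of a pair for 4 pairs in all 12 libraries (points, orange at 12 h and 24 h and gray at other times, with exact 95% binomial intervals as lines) and the product of the single shares (black dashes). At 12 h and 24 h the points lie near the dashes, as for CDH1 and COL1A1 at 4.49%, 3.12%, 5.29% and 2.11%.

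Shares of double-positive cells were compared between times over libraries. CLDN4 and COL1A1 were found together in 10.3% ± 0.960 of cells (mean ± SD, n = 4 libraries), against 0% at 0 h and 0.5 h and 4.08% ± 1.88 at 48 h and 96 h. CDH1 and COL1A1 gave 3.76% ± 1.41 against 0.417% ± 0.833 at 0 h and 0.5 h, and KRT19 and COL1A1 7.02% ± 1.98 against 0.143% ± 0.286. CDH1 and FN1 moved the other way, at 5.41% ± 1.78 against 19.0% ± 3.49. In these 5 comparisons the libraries of the groups did not overlap, and each reached the smallest p that an exact two-sided permutation test of 4 against 4 can give, 0.0286. Also at this p were EPCAM with COL1A1 (1.98% ± 1.03 against 0.139% ± 0.278 at 0 h and 0.5 h) and KRT18 with VIM (99.9% ± 0.265 against 93.8% ± 4.22 at 48 h and 96 h). After Benjamini-Hochberg adjustment over 16 comparisons the adjusted p of all of these was 0.0653, so none passed (exact permutation test, n = 4 per group). Any could pass only if most of the 16 reached that smallest p, so the miss does not show that shares were alike. CDH1 and CDH2 gave 1.94% ± 1.12 against 3.53% ± 1.27 at 0 h and 0.5 h (exact permutation p = 0.0857, adjusted p = 0.152). The levels of these genes moved between the same groups, COL1A1 up and CDH1 down as given above. CLDN4, although an epithelial marker, was itself highest at 12 h and 24 h, with a mean of 20.1 CPM. It had 1.31 CPM at 0 h and 0.5 h and 4.65 at 48 h and 96 h. KRT19 was lower than at 0 h and 0.5 h, at 16.5 CPM against 56.5. The part of these levels in the shares was not tested.

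The spread between cells itself was compared with that at 0 h and 0.5 h. By limma on the variance ratios of 7292 genes, 31 differed between 12 to 24 h and 0 to 0.5 h (0.425%), 11 higher and 20 lower, and 328 had an unadjusted p under 0.05. HSPB1 had ratios of 2.15, 1.77, 2.26 and 2.18 against 0.38, 1.01, 0.17 and 0.24 at 0 h and 0.5 h. EFNA1 had 2.54, 2.03, 1.96 and 1.1 against -0.1 to 0.72, and the metalloproteinase inhibitor TIMP2 2.39, 1.68, 2.21 and 1.72 against 0.35 to 0.94. The groups did not overlap for any of these, and the differences were 1.64 ± 0.18, 1.52 ± 0.17 and 1.42 ± 0.20 (limma, adjusted p = 8.8e-06, 4.38e-05 and 0.00116). C15orf48 rose by 1.23 (adjusted p = 0.0238) and the binding protein IGFBP7 by 1.14 (adjusted p = 0.00565, limma). Of the 11 genes, 9 were among the 190, as were 2.41% of all genes tested for variation. Both sets were picked by high ratios in the same 12 h and 24 h libraries, so their overlap is a description only. In summed level 10 of the 11 genes had also risen, HSPB1 by 1.36 ± 0.14 log2 units, where 1261 of all 10465 genes rose. The part of the level in these differences was not tested. F2RL1, the receptor PAR2, was the exception, with a ratio of 1.44 on average against 0.39 at 66.9 against 65.7 CPM, and is named after its values were seen.

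Spread had narrowed for 20 genes. The lysosomal protease CTSL had ratios of 1.11, 1.13, 1.3 and 0.79 against 3.03, 3.07, 2.43 and 2.49 at 0 h and 0.5 h, with no overlap (-1.67 ± 0.16, limma adjusted p = 1.38e-06). CYB5B, a cytochrome of the outer mitochondrial membrane, was at 0.09, -0.29, 0.05 and -0.1 against 1.12 to 1.55, so it fell to the level of its neighbors (-1.40 ± 0.14, limma adjusted p = 4.02e-06). The receptor GPRC5A, the small GTPase RAB10 and the retinol dehydrogenase RDH10 changed by -1.07, -1.07 and -1.09 (limma adjusted p = 0.000129, 0.000291 and 0.00645). Where 1170 of all 10465 genes fell and 1261 rose, summed levels fell for 13 of the 20 and rose for 5. PMEPA1, a TGFβ feedback gene named here after its values were seen, was among the latter. Its ratio was 0.49 on average against 1.49 while its level was 1055 CPM against 91.5. Of the 190 variable genes, 165 could be compared, 14 differed (8.48%) and the median difference was 0.12, against 0 for all genes tested. The 190 were picked by their ratios at 12 h and 24 h, so these values too are a description only.

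Against 48 h and 96 h, 22 of the same 7292 genes differed in spread (0.302%), 5 higher and 17 lower at 12 to 24 h. ALDH3A1 had 4.01, 2.72, 2.56 and 2.13 against 1.27, 0.49, 0.93 and 1.17 (1.89 ± 0.25, limma adjusted p = 0.00362), and its level was 582 CPM against 14.9. DKK1 had 2.01, 2.16, 2.67 and 1.88 against 1.56, 1.52, -0.28 and 0.24 (1.42 ± 0.16, limma adjusted p = 8.31e-05). Its level was 166 CPM against 23.1, and the whole 96 h libraries held only 8 and 10 DKK1 UMIs. ITGB4, the respiratory chain subunit COX7B and the retinal dehydrogenase ALDH1A1 were higher by 0.92, 0.8 and 0.79. Mean levels were higher at 12 to 24 h for 4 of these 5 genes, ITGB4 at 51.9 CPM against 9.72. Of the 17 genes with lower ratios, 12 had lower and 5 higher mean levels. The part of the level in the differences from 48 h and 96 h was not tested. EPAS1, the hypoxia-inducible factor 2α, was less variable at 1.44, 1.47, 1.77 and 1.36 against 3.26, 2.16, 3.02 and 3.45, at mean levels of 572 and 576 CPM (-1.47 ± 0.19, limma adjusted p = 0.000374). THBS1 (-1.32), IGFBP3 (-1.27), IGFBP4 (-1.19) and the cytochrome CYP1B1 (-1.08) were less variable too, with overlapping libraries for IGFBP3 and CYP1B1. Both contrasts use the same 12 h and 24 h libraries. The later libraries held 54 to 149 cells, and the 22 calls became 13 without 12 h replicate 1, 14 without 12 h replicate 2, 86 without 96 h replicate 1 and 116 without 96 h replicate 2. The 31 calls against 0 h and 0.5 h became 18 without 12 h replicate 1, 14 without 12 h replicate 2, 20 without 0 h replicate 2 and 19 without 0.5 h replicate 1. Counts of called genes in both contrasts therefore depend on single libraries.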

How the data were processed

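The authors deposited a table of UMI counts, deduplicated and not normalized (whole numbers, highest 2845), for 29035 genes and 4608 wells. The submitters' processing notes list UMI-tools, featureCounts 2.0.1, HISAT2 2.2.1, Trim Galore 0.6.7 and the build GRCh38. Neither annotation release nor strand handling is given in the sources used here, which leaves overlapping and antisense genes uncertain.

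Limits on wells were those of the study's methods, and they left fewer cells here than the study states, a difference whose cause was not tested. Doublets were not called, each well having received a single sorted cell. Depth of a cell was its nuclear protein-coding UMIs. For each of 15871 protein-coding genes and each library, the squared coefficient of variation beyond Poisson counting and its counting error were computed, and the expected value was a running median over 401 genes of like mean. Log2 variance ratios of 12 libraries were compared with limma 3.58.1 (trend, robust, a mean per time point, at least 0.1 UMI per cell in every library). Counts summed per library (3969619, 3669650, 4500036 and 2728859 protein-coding UMIs, mitochondrially encoded genes included, in the library order of the report) were tested with edgeR 4.0.16 (TMM, filterByExpr, robust quasi-likelihood F test, a mean per time point, 10465 genes, common biological coefficient of variation 0.129) and, as an alternative, DESeq2 1.42.0 (R 4.3.3). Adjustment was by Benjamini-Hochberg with a threshold of 0.05 over all genes. Genes near 1 CPM rest on few UMIs. Each cell was thinned to 12500 UMIs for co-detection, a depth near the 10th percentile, and exact permutation tests were run over libraries. Groups of co-varying genes came from average-linkage clustering of Spearman's rho. Promoters are RefSeq's for GRCh38.p14 and positions GENCODE 44. Other steps ran in Python 3.11.15 with scipy 1.17.1, pandas 2.3.3, numpy 2.4.6 and matplotlib 3.10.9, and the statistics were tested on simulated data.

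Named genes are a panel of 19, the 25 variable genes with the highest mean ratio, up to 4 per list, 5 each way per limma contrast and the 5 closest to each of 4 genes. Not all are printed, and a few items are not reported here. The cells, lists and rules were chosen with earlier results of these data known. Alternatives tried were size factors from all UMIs, thinned cells, stricter limits on cells, the highest cell left out, other floors and variance multiples, other normalization and no filter for summed counts, each library left out, and the replicate number as a block.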

Additional observations from a re-analysis of the deposited data

Results flagged for a closer look

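Among 78 sets of 4 library values at 12 h and 24 h, 9 had a library whose gap to the nearest other exceeded Dixon's 95% critical share of the range. Chance gives about 1 in 20, and the causes were not tested. The variance ratio of 24 h replicate 2 was set apart on the low side for 4 genes of the cell cycle, MKI67 (1.12), TOP2A (2.42), ARL6IP1 (1.69) and PCNA (1.3). That library had the fewest UMIs per cell, a median of 15789. In 12 h replicate 1, ANKRD1 (4.68) and CPS1 (2.89) stood high. MT2A stood low in 12 h replicate 2 (2.56) and C15orf48 high in 24 h replicate 1 (3.17). The share of thinned cells with KRT18 and VIM was 99.5% in 24 h replicate 1, where 1 cell lacked KRT18, and complete in the others.

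Wells with under 1000 detected genes, which the comparisons leave out, held a COL1A1 UMI in 5.44% and 3.87% of such wells at 12 h and in 8.60% and 6.08% at 24 h. The share was 0% in all libraries of 0 h and 0.5 h.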

How the results depend on the processing

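The 190 variable genes numbered 113 with cells thinned to 12500 UMIs (all 113 among the 190), 32 under the stricter limits on cells (31 among them), 302 and 95 with a lower or higher limit on the variance, and 197 to 255 with a library left out. Under size factors from all UMIs, without the highest cell and with a mean floor of 0.05 or 0.5 UMI the count stayed within 1.5 times. The stricter limits leave 8 to 20 cells per library of 12 h and 24 h, too few for these measures, and under them both contrasts of variation with other times gave 0 genes (31 and 22 as reported), the test of levels against 0 h and 0.5 h gave 508 (2431 as reported), that of 24 h against 12 h 1, the correlation of summed epithelial and mesenchymal levels was 0.08 (0.29 as reported), and OAS1 changed sign to -0.11. Without the highest cell of each library, 50 genes differed in variation from 0 h and 0.5 h. With a library left out, variation against 0 h and 0.5 h gave 14 to 42 genes, against 48 h and 96 h 13 to 116, and 24 h against 12 h 0 to 3. Levels gave 1945 to 2611 against 0 h and 0.5 h and 0 to 3 for 24 h against 12 h, and the correlation was 0.27 to 0.32. For 24 h against 12 h, levels gave 31 genes with no filter on low counts and 2 by DESeq2.

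With the replicate number as a block, variation gave 37, 27 and 0 genes (31, 22 and 0 without it, in the order 0 h and 0.5 h, 48 h and 96 h, 24 h against 12 h) and levels 2800 and 21 (2431 and 0). Deviations of same-numbered libraries correlated at -0.134 to -0.0716 for pairs with 0.5 h and at 0.141 to 0.492 for the others, so the number was not taken to pair the samples. Depth limits calls of genes below 1 UMI per cell.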
